A study of Mus musculus with 146 samples.

Results

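The levels of 9 genes that write, keep or remove DNA methylation were measured in single oocytes of the newborn mouse ovary. The members were taken by symbol and are Dnmt1, Dnmt3a, Dnmt3b, Dnmt3l, Uhrf1, Tet1, Tet2, Tet3 and Tdg. They are 9 of the 52605 gene symbols in each table, and each symbol was found in each table. Reads of 8 members were found, and Dnmt3l had 0 reads in each of the cells kept.

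In this series 146 single-cell libraries were sequenced by Smart-seq2, a method that reads whole polyadenylated transcripts, with synthetic ERCC RNA added to each lysate as a spike-in. The labels give ovarian cells of strain C57/BL6J at age D0.5, name no other genotype and no treatment, and put all cells in 1 group. According to the labels, the cells came from trypsin-digested ovaries of female pups of a single litter. According to the methods of the study, germ cells were picked by mouth pipette and cDNA libraries positive for Foxl2, a pregranulosa cell gene, were removed by qPCR. No label ties a cell to a pup or a plate, so the cells stand as 1 sample, no test was made between groups of them, and all ranges below are ranges over cells. Some libraries came in pairs. In 7 pairs the Pearson correlation of log2(TPM + 1) across genes was 0.984 to 0.993, whereas no other pair exceeded 0.848. Each pair was taken as 1 cell, with TPM averaged and reads summed, and all 7 cells fell in cluster 2 below. With their libraries as separate cells no call on a member changed between clusters.

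The label of germ cell was checked against markers. One library had 0 reads of Ddx4, the germ cell RNA helicase also called VASA, and was left out. The cells kept had 7.49 to 542 TPM of Ddx4 (TPM is the share of transcripts after correction for their length). Since Ddx4 decided which cells were kept, its level in them is no independent check. Other germ cell markers did not enter that choice. Dazl, Sycp3, Mael and Figla had reads in each of the cells kept, and Dazl and Sycp3 at least 10 TPM in each. Tex101, Nobox and Dppa3 had reads in most of the cells kept but not in all. The cells kept had 4837063 to 33117438 estimated reads on genes, with a median of 9669903. Markers of pregranulosa cells summed over 10 genes had medians of 0.314, 0.429 and 0.840 TPM in clusters 1, 2 and 3 (clusters are described below), and the highest sum in any cell was 81.6 TPM. Foxl2 had reads in 8 cells and reached 10 TPM in 1. The sum of 8 stroma markers had medians of 4.35, 0.975 and 0.575 TPM and highest values of 294, 879 and 81.5 TPM in clusters 1, 2 and 3, with at least 10 TPM of Nr2f2 in 28 cells. The sum of 9 blood and endothelial markers, which was nearly all haemoglobin RNA, exceeded 10000 TPM in 11 cells, and was 324973 TPM in 1 cell of cluster 1. Without those 11 cells no call on a member changed. The part of the stroma and pregranulosa RNA in the results was not tested.

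DNA methylation in mammals is a methyl group on cytosine, mostly at CpG dinucleotides. DNMT3A and DNMT3B place it on unmethylated DNA, DNMT3L helps them without having catalytic activity of its own, and DNMT1 copies it to the new strand after replication, guided by UHRF1, which binds hemimethylated CpG. The TET proteins oxidise the methyl group, and TDG is the glycosylase that cuts out the further oxidised bases. Primordial germ cells lose most of their methylation, and oocytes regain it after birth as they grow, a step for which DNMT3A and DNMT3L are known to be needed.

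The regions just upstream of the annotated starts of the members differ in their own content of CpG, the dinucleotide that these enzymes act on. From RefSeq on GRCm38.p6, 16 windows of 250 bases upstream of a start matched the 9 members. Of 32851 such windows of all genes, the median held 6 CG dinucleotides and an observed over expected CpG ratio of 0.373. To place contrasting windows beside each other, 4 are shown, 5′ to 3′ on the gene's strand, in lower case with each CG in capitals. They are the window of Dnmt1 that abuts the annotated gene (chr9:20959889-20960138, minus strand, 2 CG), a window of Dnmt1 before a start further down, inside the annotated gene (chr9:20952624-20952873, minus strand, 26 CG), the first window of Dnmt3l (chr10:78042037-78042286, plus strand, 5 CG) and the window of Dnmt3b (chr2:153649199-153649448, plus strand, 21 CG).
Dnmt1 upstream: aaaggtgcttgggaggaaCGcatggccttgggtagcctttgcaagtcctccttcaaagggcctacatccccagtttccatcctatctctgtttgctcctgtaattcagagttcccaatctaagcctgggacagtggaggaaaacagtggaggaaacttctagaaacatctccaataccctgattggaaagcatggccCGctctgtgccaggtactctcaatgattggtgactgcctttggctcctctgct
Dnmt1 downstream: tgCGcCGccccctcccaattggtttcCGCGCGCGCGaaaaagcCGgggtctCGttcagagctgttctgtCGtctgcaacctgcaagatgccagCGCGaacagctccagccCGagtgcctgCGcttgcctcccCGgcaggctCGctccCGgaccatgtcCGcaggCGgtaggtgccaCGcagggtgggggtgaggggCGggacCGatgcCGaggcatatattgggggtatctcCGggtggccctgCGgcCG
Dnmt3l: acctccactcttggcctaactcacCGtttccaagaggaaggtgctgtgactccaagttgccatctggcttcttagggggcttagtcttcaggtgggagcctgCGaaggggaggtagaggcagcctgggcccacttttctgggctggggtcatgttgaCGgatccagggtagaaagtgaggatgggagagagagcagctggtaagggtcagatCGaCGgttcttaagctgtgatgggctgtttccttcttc
Dnmt3b: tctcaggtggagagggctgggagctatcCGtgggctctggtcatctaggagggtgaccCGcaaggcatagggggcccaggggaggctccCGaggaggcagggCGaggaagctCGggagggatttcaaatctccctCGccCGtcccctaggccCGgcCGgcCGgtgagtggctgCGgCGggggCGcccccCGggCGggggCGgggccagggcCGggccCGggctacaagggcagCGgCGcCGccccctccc
The CpG ratio was 0.126 in the upstream and 0.890 in the downstream window of Dnmt1, 0.272 in that of Dnmt3l and 0.608 in that of Dnmt3b. The remaining window of Dnmt1, not printed (chr9:20952980-20953229, minus strand), held 7 CG with a ratio of 0.380. The downstream window of Dnmt1 lies past the starts of its other windows and can hold transcribed bases. All 3 windows of Dnmt3l held under 6 CG, whereas the single window of Tet2 held 51, with a higher ratio than 99.3% of all windows. The letters CANNTG, counted on both strands, were in the downstream Dnmt1, the Dnmt3l and the Dnmt3b windows printed, and in 66.2% of all windows. These counts describe the letters alone, since methylation was not measured, and the gene tables do not say which start was used.

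The maintenance genes had the highest levels of the set. In TPM the mean over the cells kept was 50.5 for Uhrf1 and 50.00 for Dnmt1, then 26.1 for Dnmt3a, 20.6 for Tdg, 19.1 for Tet2, 17.8 for Dnmt3b, 11.2 for Tet3 and 0.918 for Tet1. By mean TPM over 19532 coding genes Uhrf1 stood at percentile 85, Dnmt1 at 84.8 and Tet1 at 39.9. The middle 50% of cells overlapped between each pair of neighbours in this order down to Tet3. The upper quartile of Tet1, 0.0232 TPM, was below the lower quartile of Tet3, 1.24 TPM. By medians the order changed: Tet3 moved from place 7 to place 4 with 8.19 TPM, and Tdg from place 4 to place 7 with 2.79 TPM.

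The members also differed in how evenly the cells carried them. Reads of Dnmt1 were found in all cells kept but 1 (99.3%, exact 95% interval 96.03 to 99.98%), of Uhrf1 in 97.1%, of Tet2 in 94.9%, of Dnmt3a in 91.3% and of Tet3 in 90.6%. Dnmt3b was found in 71.01% of cells, Tdg in 65.2% and Tet1 in 38.4%. Intervals here and below cover counting error only, as reads were not counted by molecule. When each cell was drawn down to 500000 reads, Tet1 was left in 11.6% of cells and Dnmt3b in 59.4%. The tenth of cells with the most Dnmt1 held 27.7% of all its TPM, while the same share was 53.05% for Dnmt3b, 52.1% for Tdg and 96.1% for Tet1. A cell had reads of 3 to 8 members, with a median of 7, and 26 cells had reads of 8.

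**Figure D1:**
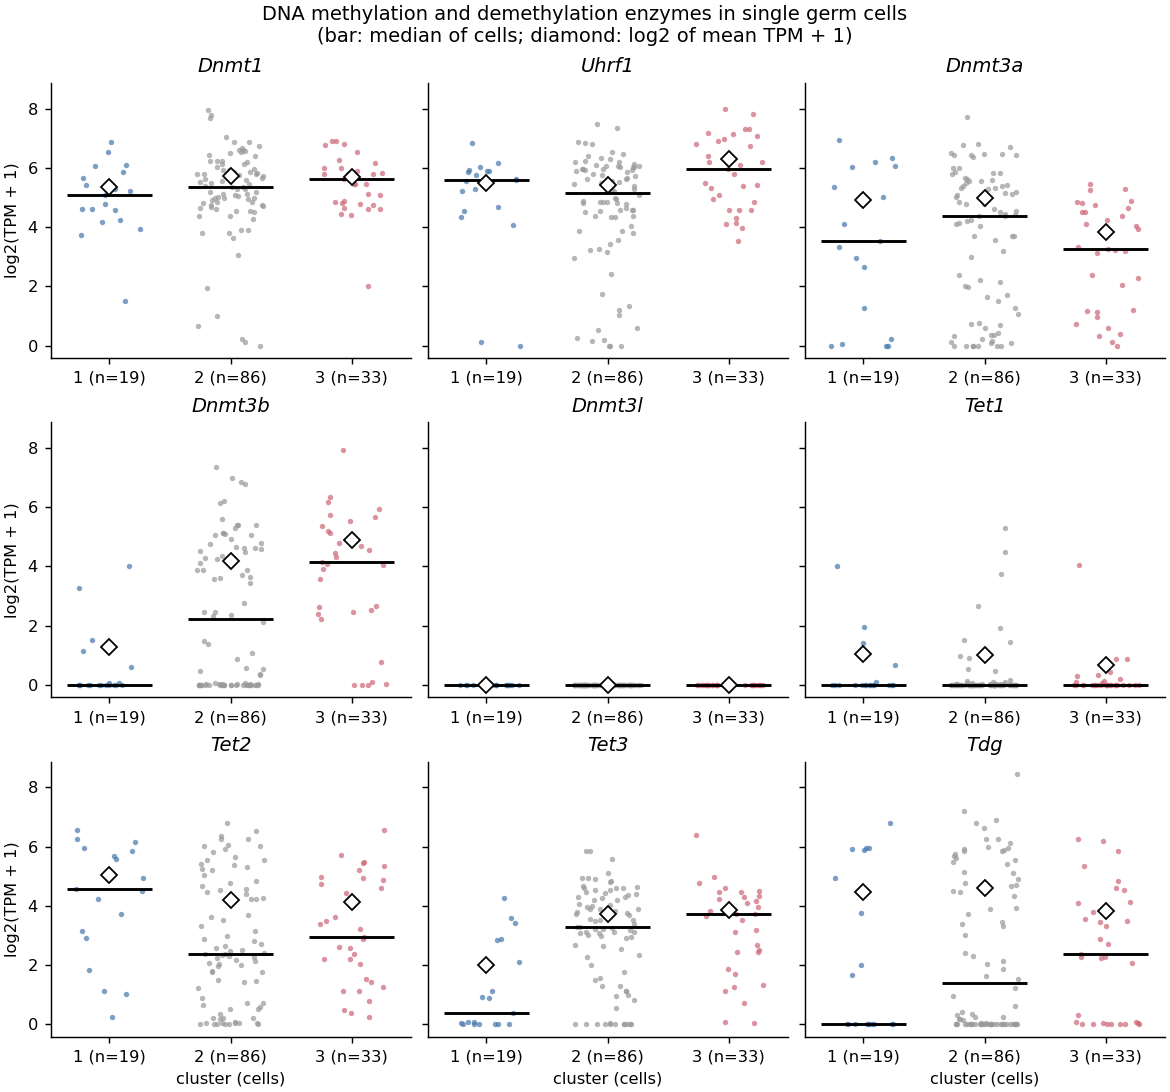
Level of each member in each cell kept as log2(TPM + 1), in clusters 1 (19 cells), 2 (86 cells) and 3 (33 cells); each point is a cell, the bar is the median of cells and the diamond is the log2 of the mean TPM + 1. Dnmt1 has 1 cell and Uhrf1 4 cells without reads, Dnmt3b, Tdg and Tet1 have many cells at 0, and all cells lie at 0 for Dnmt3l.

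Cells were grouped by rebuilding the 3 clusters of the study from 20 oocyte genes, none of which is a member. They are 19 that the text of the study names for its clustering and Taf4b. The study used 20 marker genes, and its text does not name Taf4b among them, so that gene was a choice made here. Without Taf4b 6 cells changed cluster. Cluster sizes follow from this rebuilding and differ from those of the study. Cluster 1 held 19 cells (13.8%) with high Sycp2, Stag3 and Taf7l, genes of meiotic prophase. Cluster 2 held 86 cells (62.3%) with high Sohlh1, Nobox, Figla and Lhx8, regulators of follicle formation, and cluster 3 held 33 cells (23.9%) with high Zp1, Zp2, Zp3 and Gdf9, genes of the growing oocyte. The question asked here is whether the methylation genes differ between these states. A difference is called where the means of TPM + 1 differ at least 1.5-fold, which is a rule of size and not a test, since the clusters come from cells of 1 sample. A log2 ratio below is always that of the mean TPM + 1.

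Between clusters 1 and 2, Dnmt3b and Tet3 were higher and Tet2 was lower past 1.5-fold, out of 8 members whose mean reached 1 TPM in one of the clusters. Over 11728 genes under the same rule, 24.4% were higher and 23.2% lower, so 3 of 8 is no larger a share than the 47.6% of all genes. Between clusters 2 and 3, 2 members of 8 were higher (Dnmt3b and Uhrf1) and 2 lower (Dnmt3a and Tdg), beside 17.9% and 28.9% of 11754 genes, 46.8% in either direction. From cluster 1 to cluster 3, 3 members of 8 were higher (Dnmt3b, Uhrf1 and Tet3) and 3 lower (Dnmt3a, Tet2 and Tdg), beside 28.1% and 36.8% of 11836 genes, 64.8% in either direction. The median log2 ratio of all genes was -0.03, -0.19 and -0.19 in the same order of comparisons. Cells of cluster 3 had less spike-in TPM (median 6735 TPM, against 12207 in cluster 2), and with TPM taken per spike-in TPM the median log2 ratio of all genes from cluster 2 to 3 was 0.62, with 51.8% of genes higher and 8.38% lower. With that scaling 45.4% of genes were higher and 19.9% lower from cluster 1 to cluster 3. A lower TPM is therefore a level relative to the other RNA of the cell. Reads scaled to the same total (CPM) are relative too, and did not give each of these calls. The log2 ratio of Tet2 in CPM was -0.25 from cluster 1 to 2 and 0.08 from cluster 1 to 3. That of Tdg was -0.52 from cluster 2 to 3 and -0.10 from cluster 1 to 3. Dnmt3a, with -0.82 and -0.73, stayed lower past 1.5-fold.

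Dnmt1, the maintenance methyltransferase (chr9:20907209-20959888, minus strand, GRCm38), differed by under 1.5-fold between clusters. Its TPM ran from 1.85 to 116.6 with a median of 32.7 in cluster 1, from 0 to 245 with a median of 40.4 in cluster 2, and from 3.08 to 120 with a median of 48.9 in cluster 3. The ranges overlap almost fully. The log2 ratio of the means was 0.37 from cluster 1 to 2 and -0.01 from cluster 2 to 3, both under 1.5-fold. Only per spike-in TPM did Dnmt1 pass the rule, with 0.91 from cluster 2 to 3 (0.62 for the median gene) and 1.02 from cluster 1 to 3 (0.45).

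Uhrf1, which leads DNMT1 to hemimethylated DNA (chr17:56303321-56323486, plus strand), had its highest levels in cluster 3. Its TPM ran from 0 to 114.7 with a median of 47.1 in cluster 1 and from 0 to 178 with a median of 34.5 in cluster 2. In cluster 3 it ran from 10.4 to 253 with a median of 61.7, and each of the 33 cells had at least 10 TPM, as against 68 of 86 in cluster 2. The clusters overlap, and the upper quartile was 62.1 TPM in cluster 2 and 119.4 TPM in cluster 3. The log2 ratio was 0.89 from cluster 2 to 3 (1.85-fold) and 0.91 in CPM, which scales reads to the same total without correction for length. It stayed at 0.62 or above in each alternative run. It was -0.09 from cluster 1 to 2, and -0.72 when the order of cells was cut into 3 equal parts. The ratio from cluster 1 to 3, 0.80, was 0.22 in those 3 parts and 0.49 with clusters made from variable genes, both under 1.5-fold.

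The level of Uhrf1 along the order of cells was not even. Cells were ordered on the first principal component of the 20 oocyte genes and cut into 5 bins of 27 or 28 cells. The mean TPM of Uhrf1 was 52.3, 53.1, 33.5, 33.97 and 78.9 from bin 1 to bin 5, so the lowest bins lie next to the highest. The Spearman correlation of Uhrf1 with the order was 0.04 over all cells and -0.43 within cluster 2. Dnmt1 did not show the same course, with 44.3, 62.1, 38.4, 50.5 and 53.995 TPM. In 3 bins the higher of the pair was Dnmt1 by mean, and cell by cell Uhrf1 was above Dnmt1 in 12 of 19, 36 of 86 and 20 of 33 cells of clusters 1, 2 and 3.

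**Figure D2:**
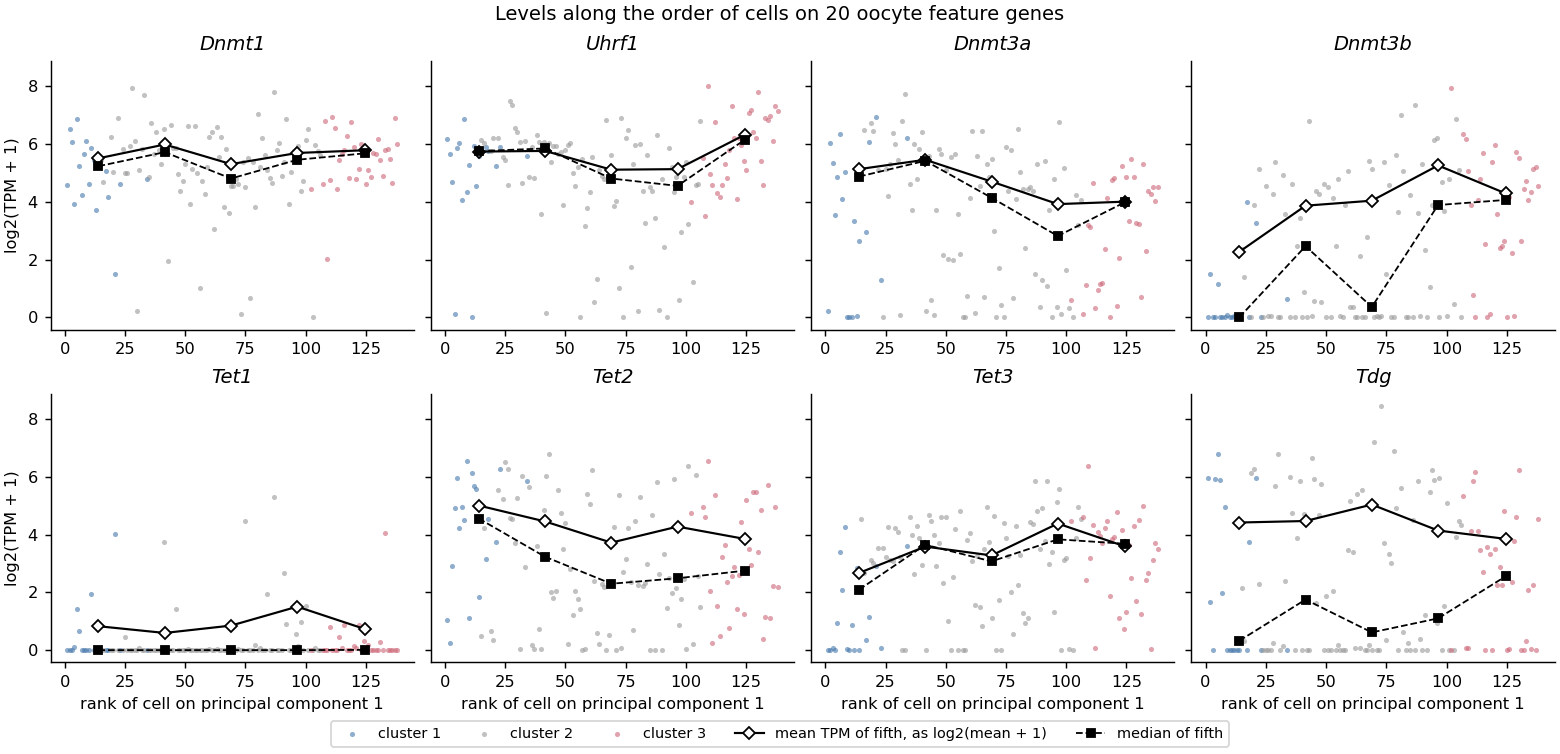
Level of 8 members as log2(TPM + 1) against the rank of each cell on the first principal component of 20 oocyte genes; points are cells coloured by cluster, diamonds are the log2 of the mean TPM + 1 and squares the median of each bin of 27 or 28 cells. Dnmt3a lies highest in bin 2 (mean 42.8 TPM) and lowest in bin 4 (14.1 TPM), Dnmt3b lies lowest in bin 1 (3.81 TPM), and Uhrf1 dips in bins 3 and 4.

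By mean TPM, Dnmt3a was lower and Dnmt3b higher in cluster 3 than in cluster 2, but neither call held in each alternative run. Dnmt3a, a de novo methyltransferase (chr12:3806007-3914443, plus strand) ran from 0 to 121.3 TPM with a median of 10.6 in cluster 1 and from 0 to 208 TPM with a median of 20.02 in cluster 2. In cluster 3 it ran from 0 to 43.1 TPM with a median of 8.51. All 3 ranges start at 0, and the highest levels were those of cluster 2. The means were 29.1, 30.4 and 13.3 TPM, a log2 ratio of 0.06 from cluster 1 to 2 and -1.13 from cluster 2 to 3. The second ratio kept its sign in each alternative run, between -1.41 and -0.14. It was under 1.5-fold per spike-in TPM, with -0.14 where the median gene had 0.62, and with clusters made from variable genes, with -0.41. In CPM it was -0.82. Reads were found in 32 of the 33 cells of cluster 3, so the gene was lower there and not lost. The first ratio turned to -0.99 with clusters made from variable genes and to -0.76 in 3 equal parts of the order. From cluster 1 to 3 the ratio was -1.07, with -0.43 per spike-in TPM and -0.41 when log2(TPM + 1) was averaged over cells.

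Dnmt3b (chr2:153649450-153687730, plus strand), the other de novo enzyme, showed the largest ratio of the set. In cluster 1 its TPM ran from 0 to 15.1 with a median of 0, and 12 of 19 cells had 0 reads. In cluster 2 it ran from 0 to 162 with a median of 3.69, and in cluster 3 from 0 to 242 with a median of 16.7. Cells with at least 10 TPM were 1 of 19, 37 of 86 and 21 of 33. The means of 1.44, 17.1 and 29.02 TPM gave log2 ratios of 2.89 from cluster 1 to 2 and 0.73 from cluster 2 to 3, and the 12.3-fold ratio from cluster 1 to 3 (log2 3.62) stayed between 1.39 and 4.24 in each alternative run. Reads of Dnmt3b were found in 36.8%, 70.9% and 90.9% of cells (exact 95% intervals 16.3 to 61.6%, 60.1 to 80.2% and 75.7 to 98.1%), and in 31.6%, 56.98% and 81.8% when each cell was drawn down to 500000 reads. The order of the clusters was the same at both depths. The ratio from cluster 2 to 3 is less firm. Of the 33 cells of cluster 3, 5 lay in bin 4 of the order, with 242, 79.7, 70.6, 32.5 and 13.9 TPM. The other 28 made up bin 5, with a mean of 18.5 TPM beside 17.1 TPM in cluster 2, and the mean of bin 4 was 37.2 TPM. The median of bin 5 was 15.7 TPM with reads in 89.3% of cells, beside 3.69 TPM and 70.9% in cluster 2. The ratio was 1.41 per spike-in TPM and 1.29 when log2(TPM + 1) was averaged over cells. It was 0.37 without the 1 cell of cluster 3 with 242 TPM. It was 0.49 with clusters made from variable genes, 0.17 when the library without Ddx4 was clustered too and -0.02 with Ward clusters. In each of these other clusterings the same cell fell in cluster 2, so these lower values are not independent of each other. The ratio from cluster 1 to 2 was 0.89 or above in each alternative run.

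Within cells, the more abundant of the pair by TPM changed with the cluster. This was counted in TPM and in the main clusters only. The effective length of Dnmt3a also differed between clusters, as given below, and its part here was not tested. Among cells with at least 1 TPM of the 2 genes summed, Dnmt3b exceeded Dnmt3a in 1 of 14 cells of cluster 1 (7.14%, exact 95% interval 0.181 to 33.9%), in 25 of 73 of cluster 2 (34.2%, 23.5 to 46.3%) and in 22 of 31 of cluster 3 (70.97%, 51.96 to 85.8%). These intervals hold counting error over cells of 1 sample and are no test between clusters. Across the cells kept the Spearman correlation between the pair was -0.0021, and within clusters 1, 2 and 3 it was 0.29, 0.01 and -0.17. Both genes had reads in 91 cells, Dnmt3a alone in 35, Dnmt3b alone in 7 and neither in 5.

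**Figure D3:**
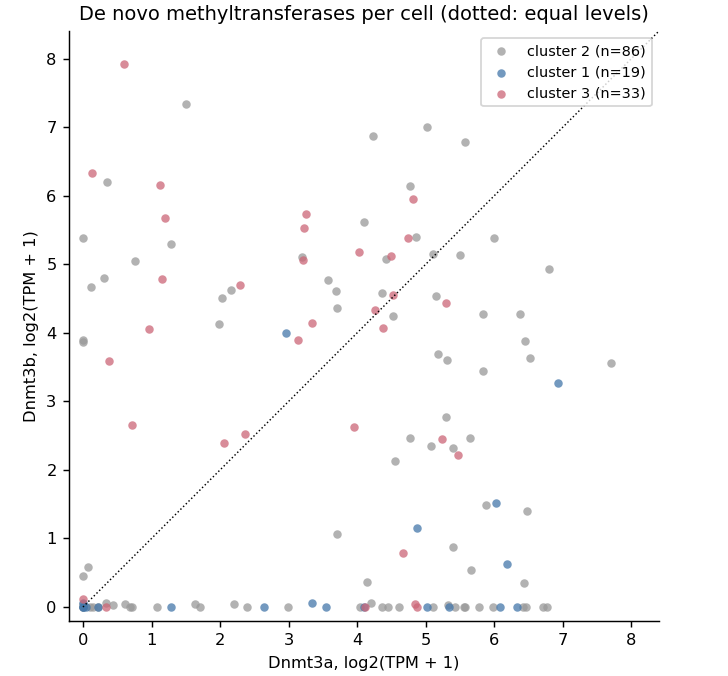
Dnmt3b against Dnmt3a in each cell, both as log2(TPM + 1), coloured by cluster; the dotted line marks equal levels. Of cells with at least 1 TPM summed, 22 of 31 in cluster 3 and 1 of 14 in cluster 1 lie above the line, and many cells lie on an axis with a single enzyme.

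Reads near both genes could be shared with other annotated genes. Dnmt3bos, an antisense gene at the Dnmt3b locus, had a mean of 14.04 TPM, with 0.0128, 8.39 and 36.8 TPM in clusters 1, 2 and 3 and reads in 41 cells. It shares 0 exonic bases with Dnmt3b in GENCODE M21, and its Spearman correlation with Dnmt3b across cells was 0.22. Both were lowest in cluster 1 and highest in cluster 3. Dnmt3aos, antisense to Dnmt3a and overlapping its exons, had reads in 6 cells and a mean of 0.01496 TPM. The processed pseudogene Dnmt3a-ps1 had 0 reads. Dnmt3c, a copy of Dnmt3b, was not among the gene symbols, so reads from it could not be counted apart. Its part in the level of Dnmt3b was not tested.

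Dnmt3l, the cofactor without catalytic activity (chr10:78041947-78063622, plus strand), was not detected. It had 0 of 1410260000 estimated reads over the cells kept, which allows up to 0.00213 CPM, and 0 of the cells kept had a read, which allows a share of up to 2.64% by the exact interval. The gene was one of 1915 coding genes (9.80%) with 0 reads in each cell kept. Its pseudogene Dnmt3l-ps1 also had 0 reads. Aire, which lies on the opposite strand and shares 67 exonic bases with Dnmt3l, had reads in 63 cells.

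The TET dioxygenases differed in level and in how firm their ratios were. Tet1 (chr10:62804570-62908996, minus strand) was near absent, with a median of 0 TPM in each cluster, a highest cell of 38.2 TPM and at least 10 TPM in 5 cells. Its means of 1.08, 1.01 and 0.583 TPM rest on those cells: the log2 ratio from cluster 1 to 2 was -0.05, and 0.64 without 1 cell of cluster 1 that held 15.2 TPM. The ratio from cluster 1 to 3 was -0.39, and 0.29 without the same cell or -0.90 without the 1 cell of cluster 3 with 15.6 TPM. That from cluster 2 to 3 was -0.35, and -0.85 without that cell of cluster 3 or 0.69 in clusters built without Taf4b. No direction can be read for Tet1.

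Tet2 (chr3:133463679-133545139, minus strand) was highest in cluster 1 by TPM. There it ran from 0.180 to 93.1 TPM with a median of 22.5, against 0 to 110 with a median of 4.22 in cluster 2 and 0.179 to 92.8 with a median of 6.74 in cluster 3. The ranges overlap, and each cell of clusters 1 and 3 had reads. The means of 31.9, 17.3 and 16.7 TPM gave log2 ratios of -0.85 from cluster 1 to 2 and -0.90 from cluster 1 to 3. In CPM the same ratios were -0.25 and 0.08, both under 1.5-fold. The first was -0.54 with Ward clusters and the second -0.47 with clusters made from variable genes, again under 1.5-fold.

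Tet3 (chr6:83362373-83459084, minus strand), the TET enzyme known to act in the egg and zygote, was lowest in cluster 1. Its TPM ran from 0 to 18.02 with a median of 0.289 in cluster 1, from 0 to 57.1 with a median of 8.75 in cluster 2, and from 0.0236 to 82.4 with a median of 12.1 in cluster 3. Reads were found in 14 of 19, 78 of 86 and 33 of 33 cells. At 500000 reads per cell the shares were 52.6%, 84.9% and 93.9%. Other measures of the cells differed between clusters too. The median number of genes with a read was 12424, 12249 and 14506 and the median mitochondrial share of reads 5.197%, 6.18% and 7.72% in clusters 1, 2 and 3. Across cells the Spearman correlation of Tet3 was 0.21 with the former and 0.34 with the latter, and that of Dnmt3b 0.28 and 0.20. The part of these measures in the ratios was not tested. The log2 ratio was 1.70 from cluster 1 to 2 (3.25-fold) and 0.15 from cluster 2 to 3. That from cluster 1 to 3, 1.85, stayed at 0.71 or above in each alternative run, while that from cluster 1 to 2 was 0.58 with clusters made from variable genes and 0.55 in 3 equal parts of the order. Within cells with at least 1 TPM of both summed, Tet3 exceeded Tet2 by TPM in 0 of 18 cells of cluster 1, which allows a share of up to 18.5% by the exact interval, in 40 of 81 of cluster 2 and in 17 of 33 of cluster 3. This too was counted in TPM and in the main clusters only. By reads, which are not corrected for length, Tet3 exceeded Tet2 in some cells of cluster 1. The effective lengths of both genes differed between clusters, as given below, and their part here was not tested.

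Tdg (chr10:82629828-82650799, plus strand), the glycosylase that removes bases oxidised by TET, varied widely between cells. It had at least 10 TPM in 51 cells, under 0.1 TPM in 54 and values between in 33. In cluster 1 it ran from 0 to 110 TPM with a median of 0, in cluster 2 from 0 to 347 with a median of 1.63 and in cluster 3 from 0 to 74.6 with a median of 4.14. The means were 20.8, 23.4 and 13.1 TPM, so cluster 3 had the lowest mean and the highest median. The log2 ratio from cluster 2 to 3 was -0.79, -0.55 without the 1 cell of cluster 2 with 347 TPM, and 0.01 when log2(TPM + 1) was averaged over cells instead. From cluster 1 to 3 it was -0.63, and -0.26 without the 1 cell of cluster 1 with 110 TPM, so neither call holds. The level is uncertain in another way. The pseudogene Tdg-ps had reads in 23 cells and a Spearman correlation of 0.47 with Tdg, and reads of near-identical copies can be split between them. Other copies of Tdg, Gm9855 and Tdg-ps2, were not among the gene symbols, so reads from them could not be counted apart. Glt8d2 on the opposite strand shares 367 exonic bases with Tdg and had reads in 54 cells.

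**Figure D4:**
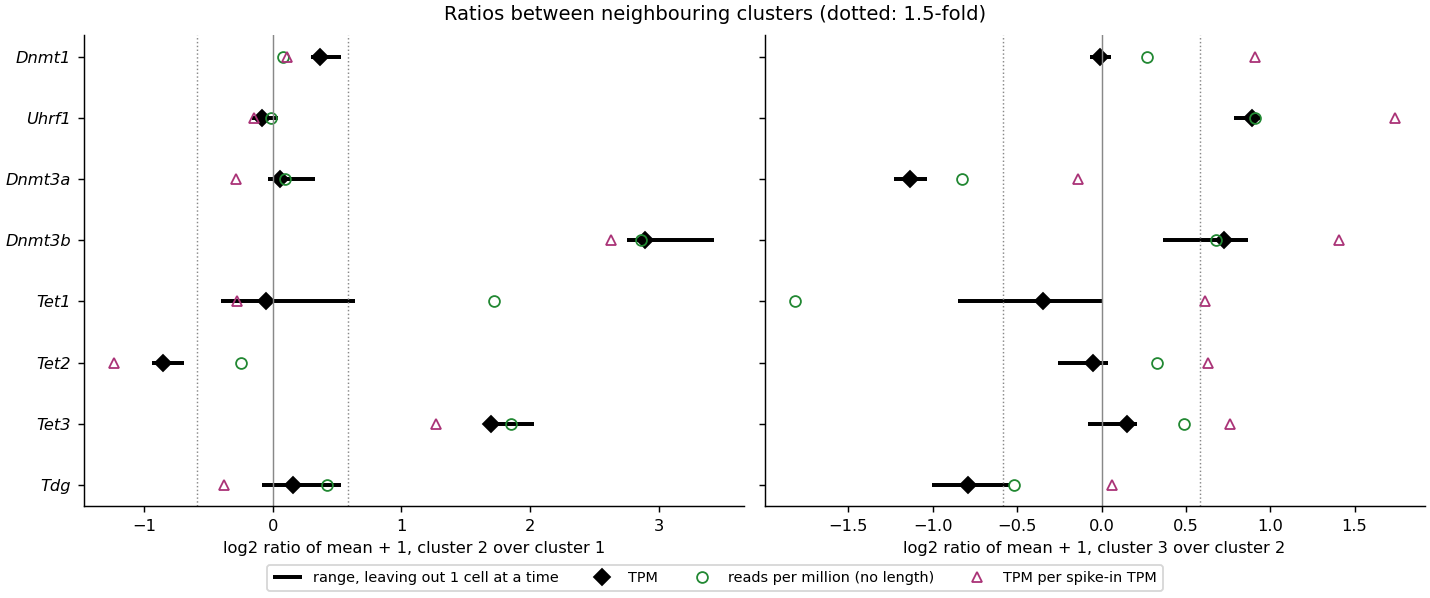
Log2 ratios of mean + 1 for 8 members, cluster 2 over cluster 1 (left) and cluster 3 over cluster 2 (right); diamonds are TPM, the line is the range when each cell is left out in turn, circles are CPM, triangles are TPM per spike-in TPM, and dotted lines mark 1.5-fold. In the left panel Dnmt3b and Tet3 lie past 1.5-fold by all 3 scalings, and in the right panel Dnmt3a lies below 0 by all 3, with its triangle at -0.14.

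Reads per TPM give the effective length that stood behind each level, and this length moved between clusters for some members. It was computed in cells with at least 20 reads of the gene. For Uhrf1 the median was 3116 bases and the middle 50% of cells lay between 3023 and 3162, close to the longest annotated transcript of 3586 bases. For Tet3 the median was 8879 of 10904 bases and for Dnmt3b 3453 of 4320. Dnmt1 had a median of 3377 of 5870 bases. By cluster, the medians were 4249, 3221 and 3411 bases for Dnmt1, 10248, 8480 and 9800 for Tet3 and 1781, 2209 and 2372 for Tdg.

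The medians of Dnmt3a and Tet2 also differed between clusters. The median for Dnmt3a was 2682 bases in cluster 1 (12 cells), 2289 in cluster 2 (62 cells) and 4197 in cluster 3 (27 cells), with a longest transcript of 9685 bases. The middle 50% of cells ran from 1913 to 3540 bases in cluster 2 and from 1772 to 5357 in cluster 3, so the groups overlap. For Tet2 the medians were 1893, 2957 and 3326 bases in clusters 1, 2 and 3, of a longest transcript of 9179. In some cells the length lay under the shortest annotated transcript (an effective length leaves out positions where no fragment can start). For Tet2 the lowest was 202 bases, with a shortest transcript of 423. The lowest was 470 for Dnmt1 (shortest transcript 607), 311 for Dnmt3a (369), 521 for Dnmt3b (600) and 351 for Uhrf1 (441). For Tet1, Tet3 and Tdg no length lay under the shortest transcript. At the same number of reads a longer length gives a lower TPM. Over all genes that passed the TPM minimum, the median log2 ratio from cluster 1 to 3 was -0.19 in TPM and -0.03 in CPM. The part of length in the ratios of the members was not tested. The tables hold no level per transcript, so the transcripts in use are not known.

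**Figure D5:**
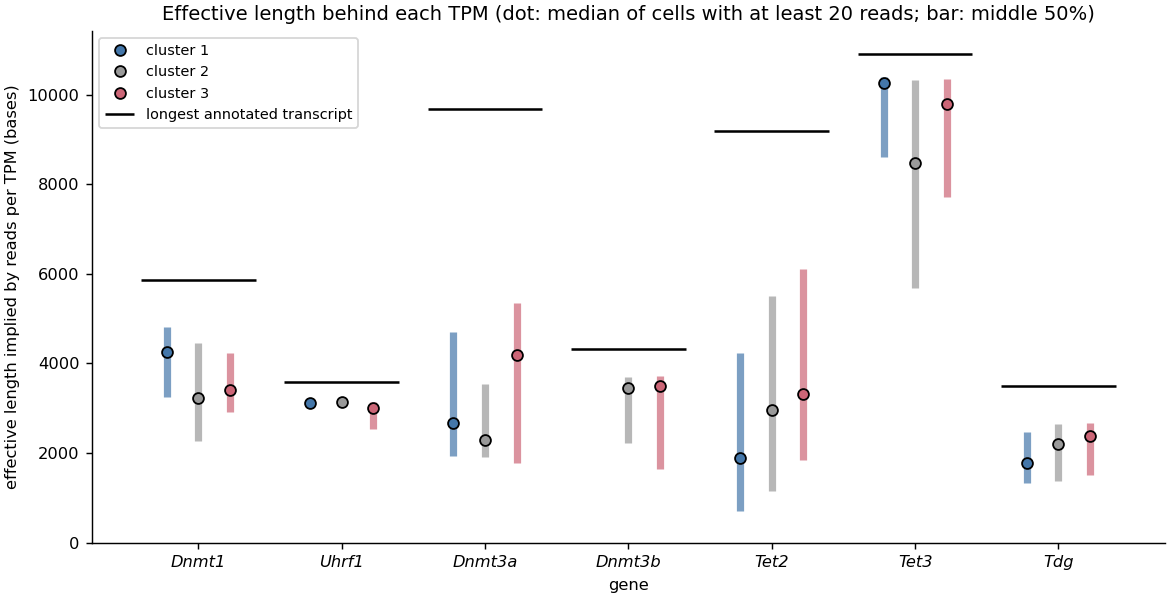
Effective length in bases implied by reads per TPM for 7 members; dots are medians of cells with at least 20 reads in each cluster with at least 5 such cells, bars span the middle 50% of those cells, and the black line is the longest annotated transcript. Dnmt3a has medians of 2289 bases in cluster 2 and 4197 in cluster 3, and Uhrf1 stays near its overall median of 3116 bases.

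Genes that work with the methyltransferases were listed and compared from cluster 1 to cluster 3. Of 18 partners, 9 were higher and 7 lower, beside 28.1% and 36.8% of all genes. Their median log2 ratio was 0.42 beside -0.19 for all genes. In CPM 7 were higher and 5 lower, beside 33.3% and 32.1% of all genes. Per spike-in TPM 11 were higher and 4 lower, beside 45.4% and 19.9% of all genes. Here and in the lists below, listed genes passed the minimum in TPM. The shares of all genes in CPM and per spike-in TPM are over genes that passed it in that scaling. Dppa3, the maternal factor that keeps UHRF1 from chromatin, had means of 2.27, 565 and 1711 TPM (log2 ratio 9.03). Zfp57, a zinc finger protein that guards imprints, had a log2 ratio of 4.91, and Kdm1b, the H3K4 demethylase needed for imprints in oocytes, 3.43. At the other end Hells, a chromatin remodeller that helps DNA methylation, had means of 338, 152 and 72.3 TPM (-2.21), Uhrf2, a relative of UHRF1, -1.84 and Zfp445, another imprint guard, -1.65. These 6 directions were the same in CPM and per spike-in TPM.

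Readers and removers of methylation were mixed. Of 7 methyl-CpG readers 4 were higher and 2 lower, beside 28.1% and 36.8% of all genes, with a median of 0.81 beside -0.19. In CPM 3 were higher and 2 lower, beside 33.3% and 32.1%, with a median of 0.20 beside -0.03 for all genes that passed the TPM minimum. Mbd2 had a log2 ratio of 2.04 and Mbd3 1.19, while Mbd1 had -1.18. Zbtb38 had 1.10 in TPM and -0.71 in CPM, and Zbtb33 had 0.81. Of 19 TET partners and base excision repair genes that passed the minimum, 9 were higher and 3 lower, with a median of 0.15. So 12 of 19 moved beside 64.8% of all genes. Per spike-in TPM 11 of these were higher and 1 lower, beside 45.4% and 19.9% of all genes. Neil2, a DNA glycosylase, had 3.42, Gadd45a 3.11 and Gadd45b 1.99, the last 2 being stress genes linked to demethylation. Lig3, a DNA ligase, had -1.89, Apex1, the abasic site endonuclease, -1.24 and Gadd45g -0.71.

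Genes of methyl donor supply and of DNA replication were compared in the same way. Of 17 methyl donor genes 6 were higher and 8 lower, beside 28.1% and 36.8% of all genes, with a median of -0.56 beside -0.19, but per spike-in TPM 8 were higher and 3 lower, where 45.4% of all genes were higher and 19.9% lower. Tyms (3.30), Mthfd1 (3.08) and Mthfd1l (2.82), enzymes of folate metabolism, had the highest log2 ratios. Mat2a, which makes S-adenosylmethionine, had means of 528, 409 and 130.9 TPM (-2.003), Ahcyl1 -1.43 and Bhmt2 -2.18. Of 20 replication genes 2 were higher and 12 lower, with a median of -0.96, so 14 of 20 passed 1.5-fold in either direction beside 64.8% of all genes. Ccne2 (-3.47), Cdc45 (-2.46) and Mcm6 (-2.12) were the lowest, and Cdc6 (1.84), Gins2 (1.06) and E2f1 (0.41) the highest. Uhrf1, often coexpressed with replication genes in dividing cells, had a Spearman correlation of 0.10 with the sum of the 20 genes across cells, and Dnmt1 of -0.02. Dnmt3b had -0.37 and Tet3 -0.30. Per spike-in TPM the replication genes had a median of -0.48 beside 0.43 for all genes that passed the TPM minimum, with 5 higher and 7 lower.

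The members did not move as a block. Over 28 pairs of the 8 detected members, the Spearman correlation across cells ran from -0.08 to 0.29 with a median of 0.10. The highest were Dnmt3a with Uhrf1 (0.29), Dnmt3b with Tet3 (0.24) and Uhrf1 with Tdg (0.24), and Dnmt1 with Uhrf1 had 0.12. All cells share 1 sample, and depth and the number of genes detected are common to each pair. The Spearman correlation with the number of genes with reads ran from 0.14 for Dnmt3a to 0.30 for Uhrf1. The part of that number in the pairs was not tested.

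Other genes were more like a member than any member was. Among 8740 coding genes of at least 1 TPM with reads in at least 50% of cells, the highest Spearman correlation with Dnmt3a was that of Mtmr3 (0.50), followed by Atn1 (0.43) and Pet2 (0.43). For Dnmt3b they were Fnbp1 (0.47), Mctp2 (0.44) and Ap3b2 (0.43), and for Dnmt1 Afg3l1 (0.38), Got2 (0.37) and Arpp21 (0.36). Uhrf1 was most like Phf13 (0.40), Phf1 (0.40) and Fam53c (0.40). Tet2 had Lacc1 (0.40), Tubgcp5 (0.36) and Fam135a (0.36), Tet3 had Nacc1 (0.42), Nanos1 (0.41) and Pcbp1 (0.41), and Tdg had Nacc2 (0.45), Gtpbp1 (0.42) and Fiz1 (0.41). These are the highest values of a long list and describe these cells only.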

How the data were processed

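Single-cell RNA-seq tables of 146 ovarian cell libraries at D0.5 were used. The authors quantified reads with Salmon, correcting sequence bias, on mm10 with ERCC sequences, and deposited per gene symbol a TPM and an estimated count of reads, which need not be whole and which the authors did not normalize. Each cell's TPM share 1 total, spike-ins and mitochondrial genes included. Versions of the tools the authors used are not printed here.

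Libraries whose log2(TPM + 1) correlated above 0.95 (7 pairs) were joined into 1 cell. The library without Ddx4 (minimum 1 TPM) was left out. Clusters were rebuilt from TPM in Seurat 5.3.0 (R 4.3.3) on the 20 feature genes with 10 principal components, 20 neighbours and resolution 0.2; cluster sizes follow from this rebuilding. Ratios are of mean TPM with a pseudocount of 1 and called at 1.5-fold, for coding genes (GENCODE M21, GRCm38) with 0.1 TPM in at least 10 cells and a mean of 1 TPM in either cluster. Detection is at least 1 read, also after drawing 500000 reads per cell, with exact 95% (Clopper-Pearson) intervals. A count of 0 was taken to allow 3. The Spearman correlation has no p-value. Python 3.11.15, pandas 2.3.3, NumPy 2.4.6 and SciPy 1.17.1 were used, and the calculations were tested on simulated data.

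The 9 members are given in full. Of each pathway list, the 3 genes of at least 1 TPM with the most extreme ratio of cluster 3 over 1 in each direction are named, and for each member with reads in 50% of cells the 3 most alike genes. One gene so chosen is not reported here. Members and lists were chosen with earlier results of these data known. Antisense genes, pseudogenes and other copies of members, chosen after seeing the data, are named where they could share reads. No strand setting of the counting is given in the sources used here.

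The deposited length columns were planned for transcript length but were not used, because for some members they often lay below the shortest annotated transcript. Of cells with 20 reads this was so in 72 of 72 for Tdg, 45 of 101 for Dnmt3a, 35 of 80 for Dnmt3b and 26 of 110 for Tet2. It was so in 6 of 130 for Dnmt1, 2 of 128 for Uhrf1, 2 of 10 for Tet1 and 0 of 114 for Tet3. The effective length was instead taken as reads over TPM, scaled by the spike-ins of the cell, which deviated at most 0.000551% from their median over 2637 values. The length so taken also lay below the shortest transcript in some cells, as given above. TPM and counts were used as deposited, and whether such short lengths affected the TPM was not tested.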

Additional observations from a re-analysis of the deposited data

Results flagged for a closer look

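The library without Ddx4, used above only where it is named as included, held more than 3 reads of 4 members. Dnmt1 had 69.4 TPM (53.9 estimated reads), Dnmt3a 23.9 TPM, Tet1 65.8 TPM and Tet2 13.1 TPM, with 1408459 reads on genes, fewer than in any of the cells kept. They were flagged because they lie in data outside the main comparisons and above what a count of 0 would allow. Tet1 there, with 211 reads, was above each of the cells kept, whose highest value was 38.2 TPM. Dnmt1 was reached by 28 of the kept cells, Dnmt3a by 54 and Tet2 by 53. Tet3 had 1 read, and Dnmt3b, Dnmt3l, Uhrf1 and Tdg had 0. The listed stroma and pregranulosa markers were mixed in the same library. It had 222 TPM of Col1a2, 82.4 of Kitl, 14.1 of Tcf21, 11.5 of Pdgfra and 10.5 of Upk3b. Lgr5 had 2.63 TPM, Wnt4 2.32, Gata4 1.08, Wnt6 1.08, Dcn 0.553, Nr2f2 0.339 and Fst 0.272. Col1a1, Col3a1, Lum, Foxl2, Amhr2 and Krt19 had 0.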

How the results depend on the processing

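Each ratio was recomputed under 13 other settings and with each cell left out, and of 360 alternative values 309 stayed on the same side of 1.5-fold (a sign turning below it was not counted), 24 no longer passed it, 12 newly passed it and 15 reversed. Dnmt3b from cluster 1 to 2, Uhrf1 from 2 to 3, and Dnmt3b and Tet3 from 1 to 3 passed it in each. Shares in brackets are those of all genes under the same setting and direction. In CPM, 0 members were lower from cluster 1 to 2 (21.9%) and 1 from 1 to 3 (32.1%), Tet1 from 1 to 2 was 1.72 and Tet2 from 1 to 3 was 0.081. Per spike-in TPM, 6 members were higher (51.8%) and 0 lower (8.38%) from 2 to 3, 1 was lower from 1 to 3 (19.9%), and from 2 to 3 Dnmt1 was 0.91, Tet1 0.61, Tet2 0.63 and Tdg 0.062. As differences of mean log2(TPM + 1), 1 member was lower from 2 to 3 (12.6%) and 1 from 1 to 3 (28.5%), and Tdg was 0.0094 and 0.195. With clusters from variable genes, 2 members were lower from 1 to 2 (22.7%) and 1 from 2 to 3 (28.6%), Dnmt3a was -0.99 from 1 to 2, Tet2 0.59 from 2 to 3 and Tet1 0.73 from 1 to 3. In 3 equal parts of the order, 1 was higher (17.04%) and 3 lower (23.3%) from 1 to 2, and Dnmt3a was -0.76 there. With Ward clusters 0 were lower from 1 to 2 (22.3%), 1 was higher (16.3%) and 1 lower (31.6%) from 2 to 3, and Dnmt3b was -0.021 there. With the library without Ddx4 included, 2 were lower from 1 to 2 (25.99%) and 1 was higher from 2 to 3 (17.3%). Without Taf4b, Tet1 was 0.69 from 2 to 3. Leaving out each cell in turn gave 1 to 2 members higher and 1 to 3 lower from 2 to 3, and Tet1 from 1 to 2 between -0.40 and 0.64. Leaving out the 11 cells rich in haemoglobin RNA, clustering without Taf4b and taking repeat libraries as separate cells were chosen after seeing the data. The cause of these changes was not tested. Ranks by median are given above. No paired analysis was possible because the labels name no animal and no second group. Reads of Tet1, Dnmt3b and Tdg were found in fewer cells when each cell was drawn down to fewer reads. Across the cells kept, their Spearman correlation with the reads on genes was 0.04, -0.10 and 0.16. The part of depth in the zeros of these genes was not tested, and a cell without reads of a gene is not shown to lack its RNA.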
